A study of Mus musculus with 12 samples.

Results

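The striatum was compared with the cortex in R6/2 mice at 8 weeks of age, an age the study labels pre-symptomatic, to describe the regional expression programme before symptoms. The comparison holds 4 of the 12 libraries of the series, chosen by their labels of region, genotype and age: 2 from striatum (preHD-STR) and 2 from cortex (preHD-CTX). The R6/2 transgene encodes exon 1 of human huntingtin with a long CAG tract, and all 4 libraries share this genotype, labelled HD (R6/2). The other libraries were preWT-STR and preWT-CTX from wild-type littermates at 8 weeks (1 each), postHD-STR and postHD-CTX from R6/2 mice at 13 weeks (2 each), and postWT-STR and postWT-CTX from littermates at 13 weeks (1 each). Each library was a 3' end QuantSeq count table from 500 ng of total RNA of dissected tissue, and p-values measure the spread between these libraries. A group with a single library in a fit adds nothing to that spread. The 4 preHD libraries held 9185126, 9528462, 10658856 and 10336064 counts (preHD-STR replicates 1 and 2, then preHD-CTX replicates 1 and 2). The labels do not say whether replicates came from separate mice. In both regions replicate 1 carried the Y-linked Ddx3y and almost no Xist and replicate 2 the reverse, so the replicates of a region did not come from 1 mouse, and sex and replicate number cannot be told apart in these R6/2 mice. Rn45s, a ribosomal RNA gene, took 13.3% to 14.4% of the counts of the 4 libraries, against 4.32% and 5.16% in preWT-STR and preWT-CTX.

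Medium spiny neurons are the GABAergic projection neurons that make up most striatal neurons. Those of the direct pathway carry the dopamine receptor Drd1 and make the peptides tachykinin (Tac1) and dynorphin (Pdyn), those of the indirect pathway carry Drd2 and the adenosine receptor Adora2a and make enkephalin (Penk), and both signal through cyclic AMP and the phosphoprotein DARPP-32 (Ppp1r1b). The cortex is dominated by glutamatergic pyramidal neurons, which use the vesicular transporter Slc17a7 and are specified by transcription factors such as Tbr1, Fezf2 and the Neurod family. Medium spiny neurons are the cells most affected in Huntington's disease. In bulk tissue, fewer cells of a type and less RNA per cell cannot be told apart.

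The promoters of 4 genes are shown because their transcripts mark the sides of the comparison. Six3, a homeobox factor of the striatal lineage, and Tac1 were higher in striatum, and Neurod2 and Slc17a7 were higher in cortex. Each is the RefSeq promoter on GRCm38.p6 (the mm10 build), 250 bases before to 50 after a start site, written 5' to 3' on the gene's strand. Capitals mark TGACG, a half-site of the cyclic AMP response element, and CAGATG, an E-box form, on either strand, 2 motifs that do not overlap here.
Six3 chr17:85620584-85620883 (plus strand): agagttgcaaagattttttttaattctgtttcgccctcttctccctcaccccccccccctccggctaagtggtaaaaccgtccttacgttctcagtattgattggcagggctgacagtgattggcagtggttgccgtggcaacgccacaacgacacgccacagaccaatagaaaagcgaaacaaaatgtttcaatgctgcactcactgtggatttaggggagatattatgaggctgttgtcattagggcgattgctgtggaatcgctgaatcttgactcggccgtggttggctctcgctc
Tac1 chr6:7554811-7555110 (plus strand): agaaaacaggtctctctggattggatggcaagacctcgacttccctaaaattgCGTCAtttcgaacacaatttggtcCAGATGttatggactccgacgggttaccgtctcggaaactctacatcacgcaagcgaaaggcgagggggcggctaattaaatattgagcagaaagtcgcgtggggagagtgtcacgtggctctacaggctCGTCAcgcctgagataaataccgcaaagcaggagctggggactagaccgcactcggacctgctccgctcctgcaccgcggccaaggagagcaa
Neurod2 chr11:98329596-98329895 (minus strand): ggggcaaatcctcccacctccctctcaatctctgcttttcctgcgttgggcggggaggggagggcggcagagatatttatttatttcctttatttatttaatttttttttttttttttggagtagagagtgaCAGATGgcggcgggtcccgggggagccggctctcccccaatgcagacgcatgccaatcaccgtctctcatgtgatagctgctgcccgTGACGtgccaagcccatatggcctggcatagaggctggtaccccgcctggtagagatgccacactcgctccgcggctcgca
Slc17a7 chr7:45163671-45163970 (plus strand): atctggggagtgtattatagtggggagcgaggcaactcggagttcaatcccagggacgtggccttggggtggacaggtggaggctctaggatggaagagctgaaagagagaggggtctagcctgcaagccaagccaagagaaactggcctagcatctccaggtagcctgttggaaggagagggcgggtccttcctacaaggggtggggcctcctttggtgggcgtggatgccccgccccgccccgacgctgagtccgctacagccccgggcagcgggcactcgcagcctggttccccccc

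The Tac1 window held TGACG at 2 places and CAGATG at 1, the Neurod2 window held each at 1, and the other windows held neither. Among all 32851 promoters of the table, 20.8% held TGACG and 17.2% held CAGATG. Among the 230 promoters of genes called higher in striatum with both replicates, 20.9% held TGACG, as did 22% of the 454 promoters of genes called lower and 29.5% of the 13953 promoters of all tested genes. With preHD-STR replicate 1 alone the shares were 28.6%, 28.5% and 29.2%. CAGATG was held by 14.8% of promoters of genes called higher, 14.1% of those called lower and 11.8% of all tested with both replicates, and by 12.6%, 13.5% and 12% with replicate 1 alone. On GRCm38 (GENCODE M21) Six3 spans chr17:85613608-85629302, Tac1 chr6:7554879-7565834, Neurod2 chr11:98325415-98329648 and Slc17a7 chr7:45163949-45176142, and all 4 are protein-coding. A match is a run of letters, not a measured binding site.

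Before any test, preHD-STR replicate 2 stood apart from replicate 1. Genes that mark the thalamus, a neighbouring region, summed to 3327 CPM (counts per 1000000 counts, scaled by TMM factors over the 12 libraries) in preHD-STR replicate 2, against 191 in replicate 1 and 370 and 392 in the preHD-CTX replicates, and all 16 of 16 thalamus markers were higher there than in the other 3 libraries. Shox2, a homeobox factor of thalamic neurons, was at 420 CPM in preHD-STR replicate 2, at 0 in replicate 1 and at 0.42 and 0.435 in the cortex. Oligodendrocyte genes summed to 22856 CPM against 3761, 2620 and 2988, with all 17 of 17 higher in preHD-STR replicate 2 than in the others, and Ttr, a choroid plexus transcript, was at 930 CPM against 0.467, 0.315 and 1.74. The 9 hypothalamus markers summed to 37 CPM in replicate 2 and 9.22 in replicate 1.

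Markers of other classes did not part the striatal replicates as far. Summed over 12 genes each, astrocyte markers were at 5898 and 6949 CPM and microglia markers at 497 and 563 in preHD-STR replicates 1 and 2, and the 10 endothelial and mural genes were at 168 and 236. The medium spiny neuron signalling list moved the other way, from 11197 CPM in replicate 1 to 4078 in replicate 2, with 19 of 22 genes lower in replicate 2. What these transcripts contributed to each gene below was not tested, so each contrast is given for both striatal libraries and for preHD-STR replicate 1 against both cortex libraries. The lists and their sums in the 4 libraries are plotted by library.

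**Figure D1:**
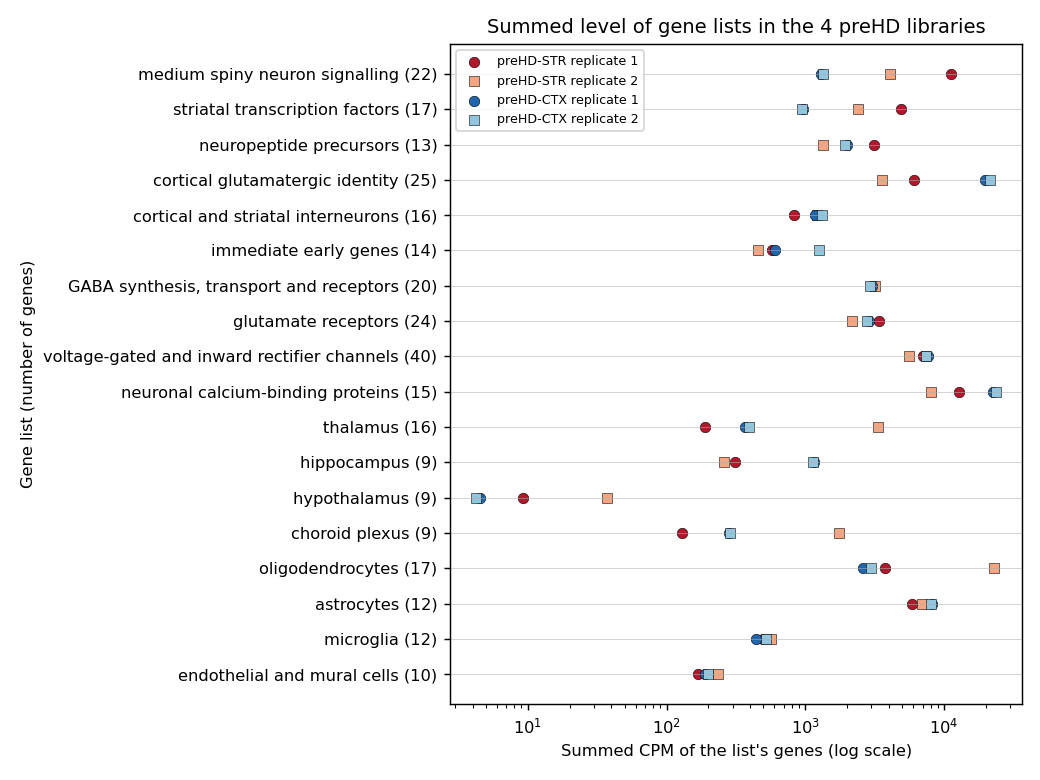
Summed CPM (log axis) of each gene list in the 4 preHD libraries, 1 point per library. preHD-STR replicate 2 lies far to the right for thalamus (3327 CPM against 191 to 392), choroid plexus and oligodendrocytes, and both striatal libraries lie above the cortex for medium spiny neuron signalling.

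With both replicates in the test, 629 of 14392 tested genes (4.37%) passed an adjusted p under 0.05, 209 higher in striatum (1.45%) and 420 higher in cortex (2.92%). With preHD-STR replicate 1 alone against both cortex libraries, 1870 of 15009 (12.5%) passed, 867 higher in striatum (5.78%) and 1003 higher in cortex (6.68%). With preHD-STR replicate 2 alone, 1798 of 15037 (12%) passed, 840 higher (5.59%) and 958 lower (6.37%). These contrasts share the cortex libraries, and every adjusted p-value is from the edgeR quasi-likelihood test (Benjamini-Hochberg). In the fits with a single striatal library, that library was assumed to vary like the other groups. Their p-values hold no spread between preHD-STR replicates, so their counts are not directly comparable with those from both replicates. The chi-square per degree of freedom between replicates was 78.2 in preHD-STR. It was 7.23 in preHD-CTX, 17.6 in postHD-CTX and 20.3 in postHD-STR. Whether a striatal library taken alone varies like those groups cannot be tested here. Without preHD-CTX replicate 1 or 2, the count with both striatal replicates was 96 or 98, and that with replicate 1 alone was 955 or 878. Of 74 named genes that passed with both replicates, 53 or 51 did not pass without preHD-CTX replicate 1 or 2, Drd1, Penk, Tac1 and Nts among them (adjusted p of 0.0885 to 0.264). In the contrast with replicate 1 it was 19 or 18 of 114, and these 4 genes kept their call.

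The 2 pairs of equal replicate number share no library. Of 10805 genes with a mean of at least 5 CPM, 624 had a log2 striatum to cortex ratio of at least 1 in the replicate 1 pair, with a median of 1.45, and the median of the same genes in the replicate 2 pair was 0.59. Of these 624, 496 were above 0 and 222 (35.6%) reached 1 in the replicate 2 pair. In the other direction, 955 genes were at or below -1 in the replicate 1 pair, with a median of -1.53 against -0.75 in the replicate 2 pair, where 759 were below 0 and 385 (40.3%) reached -1. These genes were chosen by the replicate 1 pair, which favours a smaller ratio in the other pair, and the replicate 2 pair had 753 genes of its own at or above 1 and 797 at or below -1.

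**Figure D2:**
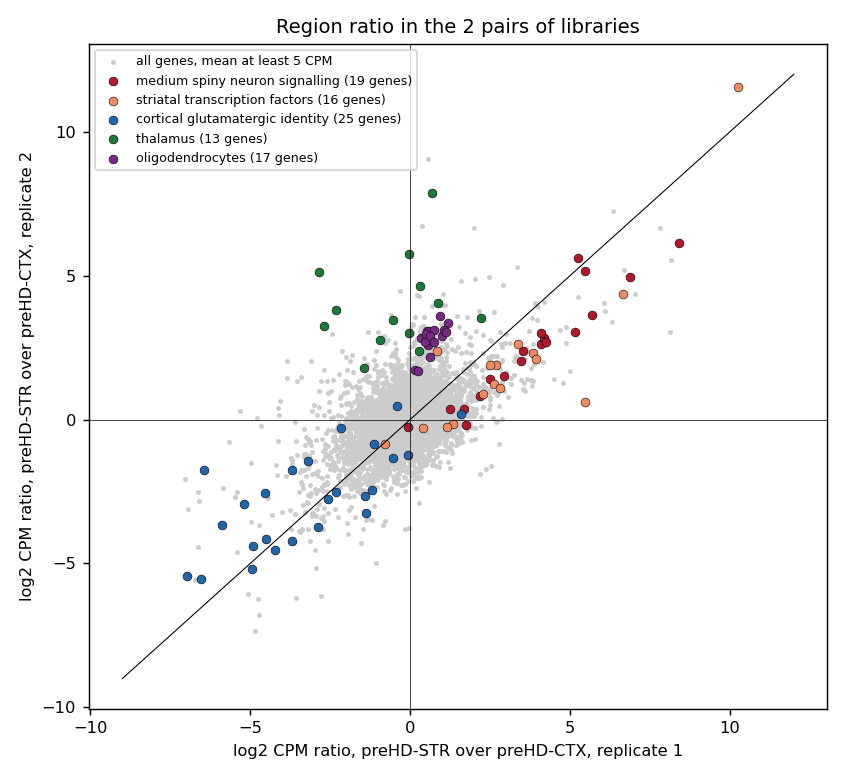
Log2 CPM ratio of striatum over cortex in the replicate 1 pair (horizontal axis) and the replicate 2 pair (vertical axis); each point is a gene, with marker lists in colour and the line of equal ratios drawn. Medium spiny neuron genes lie mostly below the line at the upper right, cortical genes at the lower left, and thalamus and oligodendrocyte genes lie above the line.

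Medium spiny neuron signalling genes were higher in striatum. Of the 19 of 22 listed genes that could be tested, 14 were higher and 0 lower with both striatal replicates. Over all tested genes 1.45% were higher and 2.92% lower. The median log2 fold change of the list was 3.57 with both replicates, 4.08 with replicate 1 and 2.65 with replicate 2. Over all genes it was 0.0303, 0.00329 and -0.00312. Drd1 was at 1303 and 328 CPM in preHD-STR and at 25.2 and 26.5 CPM in preHD-CTX, a log2 fold change of 4.99 ± 0.66 (SE, adjusted p = 0.0101), or 5.70 ± 0.23 with replicate 1 (adjusted p = 7.69e-09). Adora2a was at 249 and 100 CPM against 0.736 and 1.41, a log2 fold change of 7.34 ± 0.58 (adjusted p = 0.00109), or 7.89 ± 0.32 with replicate 1 (adjusted p = 3.61e-09). Both genes were above every cortex library in each striatal library, and in both replicate 1 held the higher level.

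Ppp1r1b was at 2092 and 737 CPM in striatum and at 122 and 119 CPM in cortex, a log2 fold change of 3.57 ± 0.50 (adjusted p = 0.0109). The cyclic AMP branch followed the same order. Gnal, the striatal stimulatory G protein subunit, was at 896 and 434 against 157 and 165 CPM (log2 fold change 2.06 ± 0.29), and Adcy5, the main striatal adenylyl cyclase, was at 352 and 144 against 30.4 and 27.3 CPM (3.12 ± 0.39). The phosphodiesterases Pde10a and Pde1b, which degrade cyclic nucleotides, had log2 fold changes of 4.23 ± 0.48 and 2.92 ± 0.40. Rgs9, which speeds the shut-off of G protein signals, was at 264 and 82.4 against 5.99 and 2.28 CPM. All 5 of these genes passed in both contrasts.

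Ptpn5, the striatal-enriched phosphatase STEP, passed with replicate 1 alone (log2 fold change 2.24 ± 0.16, adjusted p = 6.53e-07) and not with both (1.68 ± 0.39, adjusted p = 0.0588). Arpp21, a cyclic AMP-regulated phosphoprotein, behaved in the same way: at 1366 and 402 CPM in striatum and 410 and 458 CPM in cortex, its replicate 2 level lay under both cortex libraries. Dgkb and the muscarinic receptor Chrm4 also passed with replicate 1 alone. Cnr1, the cannabinoid receptor, passed in neither contrast, at 44.8 and 34.1 against 46.5 and 41.2 CPM. Drd2 had 0 counts in all 4 libraries, which allows up to 0.315 to 0.35 CPM per library (3 counts, counting error only), and it did not exceed 0.353 CPM in any of the 12 libraries, wild-type striatum included. Other genes of the indirect pathway were high in striatum, and whether these zeros reflect the transcript or the gene model used in counting was not tested, so Drd2 could not be compared. Gpr6 and Gpr52 were not tested for lack of counts.

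**Figure D3:**
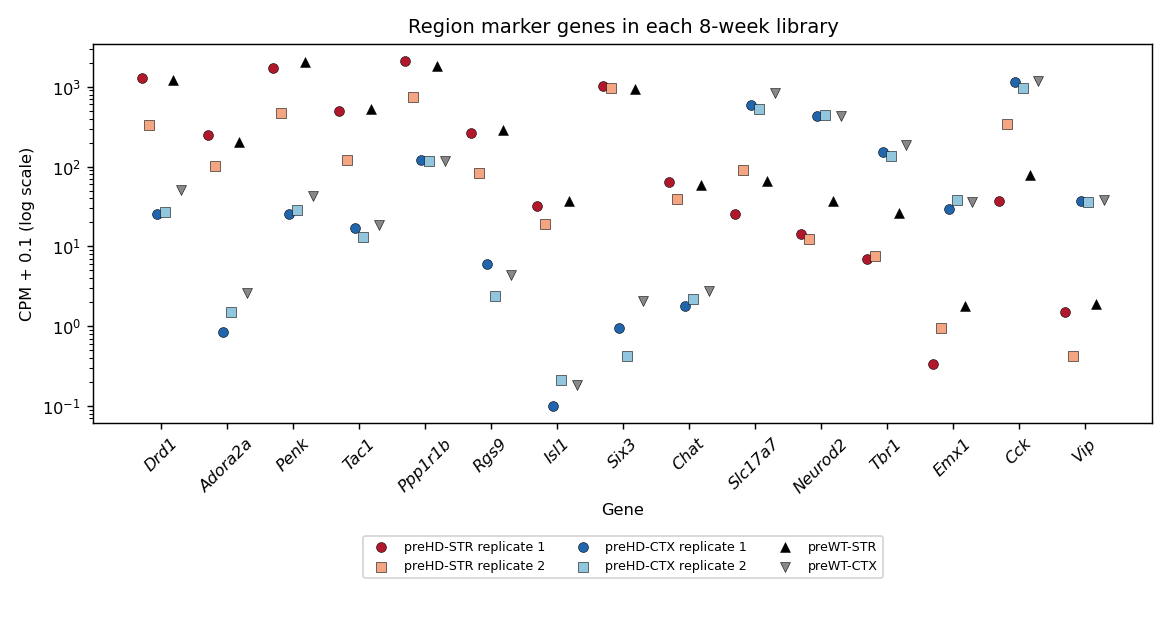
CPM plus 0.1 (log axis) of 15 region markers in the 4 preHD and the 2 preWT libraries, 1 point per library. From Drd1 to Chat the striatal points lie above the cortical ones, from Slc17a7 to Vip below them, and preHD-STR replicate 2 lies under replicate 1 for the striatal markers, by least for Six3 (1016 and 979 CPM).

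The peptide genes of both pathways were higher in striatum. Penk was at 1706 and 470 CPM in preHD-STR and at 25.6 and 28.7 CPM in preHD-CTX (log2 fold change 5.33 ± 0.65, adjusted p = 0.00718). Tac1 was at 490 and 121 against 16.8 and 13.2 CPM (4.36 ± 0.63, adjusted p = 0.0135), and neurotensin (Nts) at 41.8 and 8.06 against 0.526 and 0.761 CPM (5.26 ± 1.01, adjusted p = 0.0313). Pdyn passed only with replicate 1 alone (3.44 ± 0.58, adjusted p = 0.0228), at 247 and 44.4 against 31.5 and 15.2 CPM. Of the 13 peptide precursors, 3 were higher and 3 lower with both replicates, where 1.45% and 2.92% of all tested genes were.

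The peptides on the cortical side were those of interneurons and projection neurons. Vip was at 1.4 and 0.323 CPM in striatum and 37 and 35.5 CPM in cortex (log2 fold change -5.38 ± 0.72, adjusted p = 0.00643), and Npy at 240 and 125 against 403 and 501 CPM (-1.30 ± 0.28, adjusted p = 0.0356). Cholecystokinin (Cck) passed with replicate 1 alone (-4.81 ± 0.27, adjusted p = 1.51e-07), and was at 36.4 CPM in replicate 1 and 340 CPM in replicate 2, against 1142 and 957 CPM in cortex. Sst, which interneurons of both regions make, was at 272 and 215 against 264 and 307 CPM and passed in neither contrast. Cort, Crh, Tac2 and Cartpt also passed in neither.

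Transcription factors of the striatal lineage were higher in striatum in 9 of 17 cases with both replicates and lower in 0. Over all tested genes 1.45% were higher and 2.92% lower. The median log2 fold change of the list was 2.26 with both replicates, 2.73 with replicate 1 and 1.40 with replicate 2. Six3 was at 1016 and 979 CPM in preHD-STR and at 0.841 and 0.326 CPM in preHD-CTX (log2 fold change 10.72 ± 0.95, adjusted p = 0.00245). The annotated antisense gene Six3os1 overlaps it, and the strand used in counting is not given in the sources used here, so their reads cannot be told apart. Isl1, a factor of direct-pathway neurons, had 270 and 177 counts in striatum and 0 and 1 in cortex (adjusted p = 0.000375). Foxp2 (3.07 ± 0.31), Rarb (3.24 ± 0.50), Rxrg (5.78 ± 0.72), Zfp503 (3.18 ± 0.45), Ebf1 (2.26 ± 0.33), Sp9 (2.26 ± 0.46) and Bcl11b (2.13 ± 0.43) also passed with both replicates, the values being log2 fold changes.

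Foxp1 and Meis2 passed with replicate 1 alone. Foxp1 was at 1399 and 513 CPM in striatum and at 550 and 574 CPM in cortex, so replicate 2 lay below both cortex libraries. Meis2 was at 883 and 271 against 181 and 148 CPM. Dlx5 and Dlx6, which act in the birth of GABAergic neurons, also passed with replicate 1 alone, and Dlx1, at 12.1 and 13.3 against 20.8 and 23.8 CPM, passed in neither.

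The gap between the striatal replicates was uneven. As a share of its level in replicate 1, Drd1 stood at 25.1% in replicate 2, Ppp1r1b at 35.2% and Adora2a at 40.3%. Six3 stood at 96.3% and Ebf1 at 89.2%, but other striatal factors fell as far as the signalling genes, Dlx6 to 19.8%, Meis2 to 30.7% and Foxp1 to 36.7%. Isl1 stood between, at 60.4%. Of the 17 striatal factors, 16 were lower in replicate 2 than in replicate 1. The median log2 ratio of replicate 2 to replicate 1 was -0.81 for this list and -1.32 for medium spiny neuron signalling.

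Cortical glutamatergic genes were higher in cortex. Of 25 listed genes, 15 were lower in striatum and 0 higher with both replicates, where 2.92% and 1.45% of all tested genes were. The median log2 fold change of the list was -2.50 with both, -3.17 with replicate 1 and -2.59 with replicate 2. Neurod2, a factor of pyramidal neuron differentiation, was at 14 and 12.1 CPM in striatum and at 433 and 442 CPM in cortex (-5.04 ± 0.17, adjusted p = 5.49e-06). Tbr1, a factor of deep-layer neurons, was at 6.77 and 7.53 against 153 and 134 CPM (-4.30 ± 0.32, adjusted p = 0.000375). For these 2 genes the striatal replicates were close to each other, unlike the medium spiny neuron genes.

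Emx1, a factor of the dorsal forebrain, had a log2 fold change of -5.86 ± 0.47 and Slc30a3, the transporter that loads zinc into glutamatergic vesicles, one of -5.99 ± 0.39. Fezf2 (-3.90 ± 0.48), Neurod6 (-4.36 ± 0.48), Mef2c (-2.65 ± 0.16) and the postsynaptic gene Nrgn (-1.91 ± 0.33) also passed with both replicates. Slc17a7 was at 25.1 and 89.7 CPM in striatum and at 587 and 524 CPM in cortex (-3.24 ± 0.61, adjusted p = 0.0339), and its level in replicate 2 was the higher of the striatal levels. Rtn4r, which encodes the Nogo receptor, showed the widest gap of this kind: it was at 0.933 and 31.4 against 82.1 and 106 CPM and passed with replicate 1 alone (-6.59 ± 0.38, adjusted p = 7.11e-08).

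Some layer markers did not follow the list. Tle4, a marker of layer 6 that the striatum also expresses, was higher in striatum with replicate 1 alone (1.59 ± 0.18, adjusted p = 4.05e-05), at 162 and 65.5 against 54.3 and 56.8 CPM. Rorb, a layer 4 marker, was at 69.9 and 289 against 312 and 357 CPM and passed in neither contrast, and Bcl6 and Etv1 also passed in neither.

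**Figure D4:**
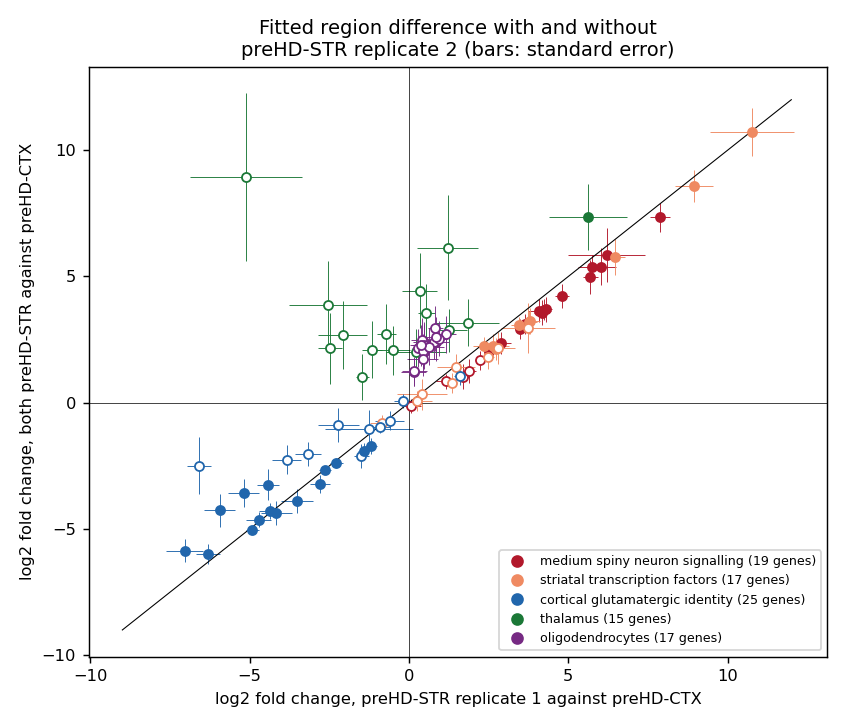
Fitted log2 fold change, striatum minus cortex, with preHD-STR replicate 1 alone (horizontal axis) and with both replicates (vertical axis); bars are standard errors, and filled points passed an adjusted p under 0.05 with both. Both axes share preHD-STR replicate 1 and the cortex libraries, which draws points to the line of equal values. Most medium spiny neuron and cortical genes lie near it, with a median of 4.08 with replicate 1 and 3.57 with both for medium spiny neuron genes. Thalamus and oligodendrocyte genes lie above the line, with Slitrk6 the filled point among them.

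Genes of cholinergic interneurons, a minor striatal class, were higher in striatum. Chat, which makes acetylcholine, was at 63.5 and 39.2 CPM against 1.68 and 2.06 (log2 fold change 4.78 ± 0.54, adjusted p = 0.00291), and the choline transporter Slc5a7 was at 25.8 and 16.7 against 0.315 and 0.109 CPM (adjusted p = 0.00337). Lhx8, a factor of this lineage, had 0 counts in both cortex libraries and was at least 31.1-fold higher in striatum (3 counts over the group, adjusted p = 0.0163). Of the 16 interneuron genes, 4 were higher and 2 lower with both replicates. Over all tested genes the shares with both replicates were 1.45% higher and 2.92% lower. Pvalb was at 12.8 and 436 CPM in striatum and at 183 and 160 CPM in cortex and passed in neither contrast. In preWT-STR Pvalb was at 12.5 CPM, near replicate 1.

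GABA genes went both ways. The synthetic enzyme Gad2 was at 384 and 203 CPM against 89.9 and 81 (log2 fold change 1.80 ± 0.27, adjusted p = 0.00789), and the vesicular transporter Slc32a1 at 377 and 207 against 91 and 89.6 CPM (1.71 ± 0.25, adjusted p = 0.00718). The receptor subunit Gabra4 was higher in striatum (0.75 ± 0.16) and Gabra3 (-1.41 ± 0.25) in cortex. With both replicates 1.45% of all tested genes were higher in striatum and 2.92% lower. Of the 19 tested genes of this list, 4 were higher and 2 lower with both replicates. The list's median log2 fold change was 0.047 with both replicates and 0.34 with replicate 1. Gad1, at 221 and 249 against 150 and 143 CPM, passed with replicate 1 alone (0.64 ± 0.18, adjusted p = 0.031).

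Among 23 tested glutamate receptor genes, only Grm4, a presynaptic metabotropic receptor, passed with both replicates, at 159 and 162 against 50.9 and 51.8 CPM (log2 fold change 1.66 ± 0.18, adjusted p = 0.00192), which is near the 4.37% of all tested genes that passed. With replicate 1 alone the median log2 fold change of the list was 0.11. It was 1.14 ± 0.16 for Gria1 and 1.26 ± 0.17 for Grm5, each of which was lower in replicate 2 than in replicate 1. Of 39 tested ion channel genes, 3 were higher and 3 lower with both replicates, where 1.45% and 2.92% of all tested genes were, and 12 and 10 with replicate 1, where 5.78% and 6.68% were. Scn4b, a sodium channel beta subunit, was at 198 and 106 against 26.7 and 25.6 CPM (2.55 ± 0.45, adjusted p = 0.0227), and Kcna4 (1.60 ± 0.33) and Kcnab1 (1.84 ± 0.37) passed on the same side. Cacna1a, a calcium channel subunit, was among those that passed on the cortical side (-0.80 ± 0.18).

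Of 15 calcium-binding genes, 2 were higher in striatum and 4 higher in cortex with both replicates, where 1.45% and 2.92% of all tested genes were. Necab2 was at 94.6 and 50.9 against 7.15 and 5.98 CPM (log2 fold change 3.48 ± 0.33, adjusted p = 0.00109), and Pcp4 at 910 and 1417 against 343 and 269 CPM (1.95 ± 0.25, adjusted p = 0.00394). On the cortical side, Camk2a, the main postsynaptic kinase of excitatory synapses, was at 1822 and 935 against 4323 and 4262 CPM (-1.62 ± 0.27, adjusted p = 0.013), with Ncald, Camkk2 and Nrgn. Nptxr, listed as a hippocampal gene, was at 93.5 and 101 against 917 and 935 CPM (-3.23 ± 0.17, adjusted p = 8.02e-05).

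Of 16 genes listed for their link to Huntington's disease or to the series, 1 passed, where 4.37% of all tested genes did. Fbxw7, a substrate receptor of an SCF ubiquitin ligase, was at 255 and 239 CPM in preHD-STR and at 727 and 702 CPM in preHD-CTX, a log2 fold change of -1.51 ± 0.15 (adjusted p = 0.00143) with both replicates and -1.45 ± 0.17 with replicate 1 (adjusted p = 4.51e-05). It was at 328 CPM in preWT-STR and 637 CPM in preWT-CTX. The other 15 of 16 passed in neither contrast, among them Htt, at 32.3 and 30.1 against 40.8 and 39 CPM, and 0 of 9 modifiers of CAG repeat instability passed. Immediate early genes, which report recent neuronal activity, passed in 0 of 14 cases in either contrast. At the share of all tested genes called with both replicates, counts of 0 in lists of this size say little. For the immediate early genes the sum was 578 and 456 CPM in striatum and 608 and 1266 CPM in cortex, so the cortex replicates differed more than the regions.

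By fitted fold change among genes with a mean of at least 5 CPM, the genes furthest to the striatal side with both replicates were Six3, Isl1, Slitrk6, Syndig1l, Adora2a, Ano2, Slc10a4, Adra2b, Slc5a7 and Lrrc10b. Syndig1l, a membrane protein of striatal neurons, was at 422 and 186 CPM against 1.89 and 1.85 (log2 fold change 7.35 ± 0.56, adjusted p = 0.00109), and Lrrc10b was at 174 and 95.4 against 1.68 and 2.61 CPM (5.98 ± 0.68, adjusted p = 0.00523). Slitrk6 and Adra2b were higher in replicate 2 than in replicate 1, at 18 and 3.15 CPM and at 9.57 and 4.67 CPM. In the contrast with replicate 1, C130060K24Rik, Lhx8, Upb1 and Gdnf were among the first 10. Lhx8 and Gdnf, with striatal means of 4.99 and 4.61 CPM over both replicates, lay under the minimum of 5 CPM with both. Upb1, at 5.48 and 0.753 CPM in striatum and 0 in cortex, was not tested with both, so its place rests on replicate 1. C130060K24Rik, at 8.75 and 1.61 CPM in striatum, did not pass with both (adjusted p = 0.0513). Gdnf, a neurotrophic factor, had 0 counts in cortex and was at least 28.7-fold higher in striatum (at 5.02 and 4.19 CPM, adjusted p = 0.0104).

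On the cortical side the first 10 were 9130024F11Rik, Igfn1, Hfe2, Ovol2, Slc30a3, Tcap, Hkdc1, Emx1, Gm11549 and Prdm8. The places of genes with 0 counts in striatum rest on fitted values and are no order of size. 9130024F11Rik, which overlaps another gene on the opposite strand, had 0 counts in both striatal libraries and was at 13.2 and 10.5 CPM in cortex, at least 70.9-fold higher there (adjusted p = 0.00143). Igfn1 also had 0 counts in striatum and was at least 50.2-fold higher in cortex. Ovol2, a zinc-finger factor, was at 0 and 0.43 against 21.4 and 25.2 CPM, and Prdm8 at 1.17 and 0.645 against 38.8 and 42.8 CPM (log2 fold change -5.47 ± 0.44, adjusted p = 0.000538). With replicate 1 alone, Adcyap1, Grp, Ntn5, Kcng4 and Tspan11 entered the first 10. Kcng4 was at 0 CPM in replicate 1 and 10 CPM in replicate 2, against 7.67 and 6.85 CPM in cortex, and did not pass with both.

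Oligodendrocyte, astrocyte, microglia and vascular genes gave 0 calls with both replicates, of 17, 12, 12 and 10 genes. As 4.37% of all tested genes passed, counts of 0 in lists of this size say little. The median log2 fold change of the oligodendrocyte list was 0.47 with replicate 1 alone and 3.08 with replicate 2 alone. With replicate 1 alone it was 0.78 ± 0.22 for Mal, 0.95 ± 0.23 for Ermn and 0.82 ± 0.23 for Trf. Mbp, a myelin protein, was at 1389.6 and 9065 CPM in striatum and 967 and 1079 CPM in cortex. Of the thalamus list, 1 of 15 tested genes was higher with both replicates (Slitrk6). The list's median log2 fold change was -0.51 with replicate 1 alone, where Slc17a6, Rora and Ramp3 were lower, and 3.76 with replicate 2 alone. Replicate 2 was known beforehand to carry thalamus and oligodendrocyte transcripts, so its values for these lists describe that library and test nothing. In each striatal library all 17 oligodendrocyte genes lay above both cortex libraries, and 21.5% of all tested genes did so in both. Of 16 thalamus genes, 6 lay above both cortex libraries and 7 below them in replicate 1, and 16 lay above in replicate 2. For these lists the size of the difference turned on the striatal library used.

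The regional difference at 8 weeks was set against that at 13 weeks by a test of the difference between them. With both striatal replicates 0 of 14392 genes (0%) passed, while 519 had an unadjusted p under 0.05 and DESeq2 called 17. Without preHD-STR replicate 2, 153 of 15009 genes (1.02%) passed, 82 with a higher striatum to cortex difference at 8 weeks (0.546%) and 71 with a lower one (0.473%). Of the 19 medium spiny neuron genes, 7 had the higher difference at 8 weeks and 0 the lower: Drd1, Adora2a, Adcy5, Pde10a, Pde1b, Ptpn5 and Gng7. Bcl11b and Zfp503 among the transcription factors, and Penk and Nts among the peptides, did the same. The count of 153 rests on few libraries: it was 9 without either preHD-CTX replicate, 25 or 27 without a postHD-CTX replicate, and 869 or 368 without postHD-STR replicate 1 or 2.

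Pde10a was at 428 and 163 CPM in preHD-STR, at 271 CPM in preWT-STR, and at 58.6 and 58.9 CPM in postHD-STR, while every R6/2 cortex library lay between 12 and 19.7 CPM. The difference between ages was 3.06 on the log2 scale without replicate 2 (adjusted p = 0.00041). Drd1 was at 252 and 200 CPM in postHD-STR and at 328 CPM in preHD-STR replicate 2. As shares of preHD-STR replicate 1, replicate 2 and the postHD-STR mean stood at 25.1% and 17.3% for Drd1 and 40.3% and 11.2% for Adora2a. The order was the reverse for Dlx6 (19.8% and 55.5%), Meis2 (30.7% and 56.2%) and Foxp1 (36.7% and 47.9%). Six3 was at 785 and 768 CPM in postHD-STR and at 5.16 and 24.4 CPM in postHD-CTX, against 0.841 and 0.326 CPM in preHD-CTX, and its difference of 5.02 ± 1.66 was not called (adjusted p = 0.47). Neurod2 was at 14 and 12.1 CPM in striatum at 8 weeks and at 3.54 and 3.31 CPM at 13 weeks, with 433 to 463 CPM in the R6/2 cortex libraries. Its deficit in striatum was smaller at 8 weeks, by 2.10 on the log2 scale in the fit without preHD-STR replicate 2. With both replicates it was not among genes called, as 0 were.

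**Figure D5:**
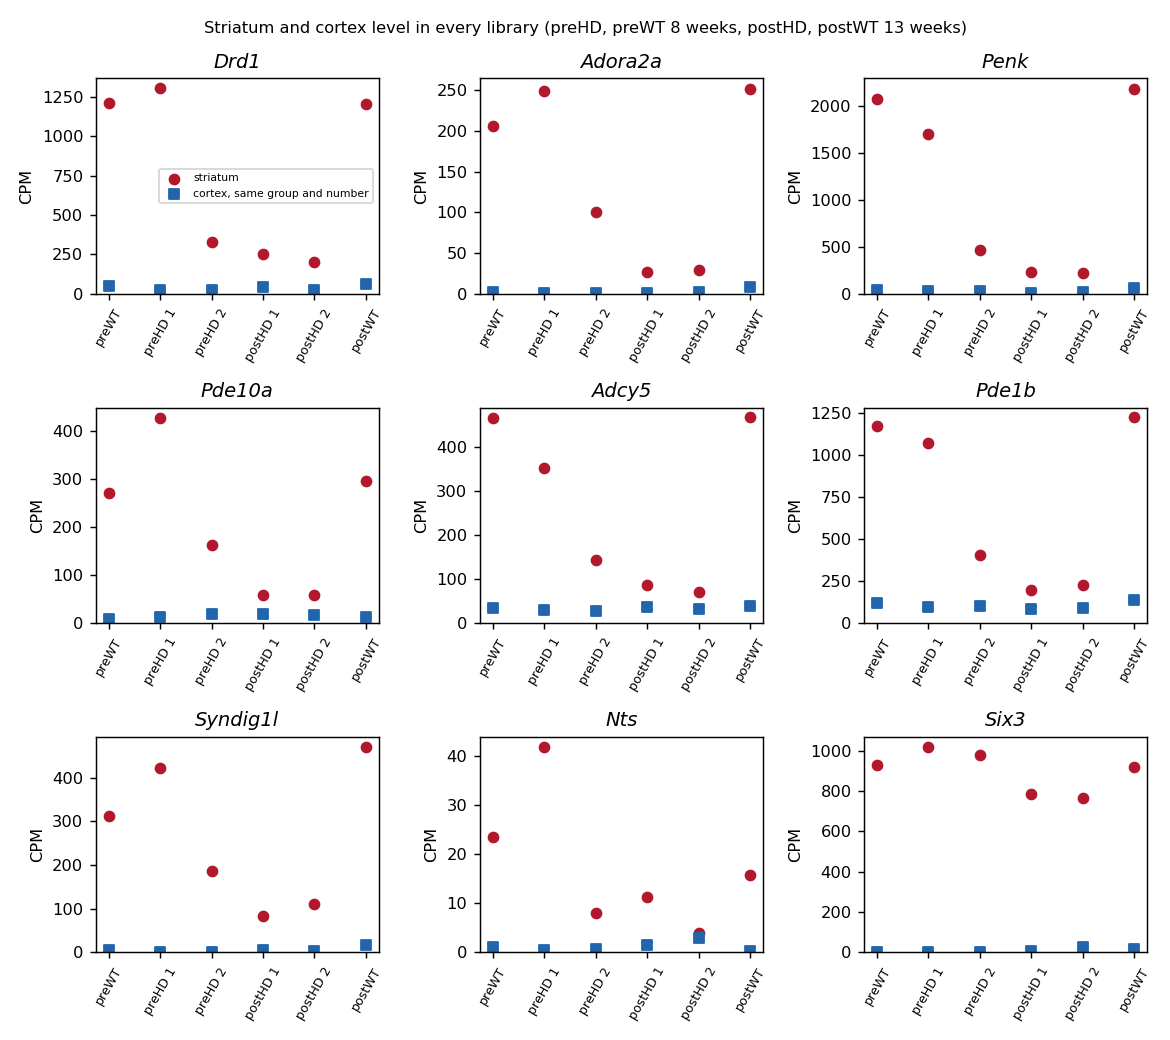
CPM in striatum (circles) and cortex (squares) in each library, by group and replicate number, for 9 genes; each panel has its own axis from 0. For Drd1, Adora2a, Penk, Pde10a, Adcy5, Pde1b and Syndig1l, preHD-STR replicate 1 and the wild-type striatal libraries lie above the others, preHD-STR replicate 2 lies between them and postHD-STR, and Six3 stays between 768 and 1016 CPM in striatum.

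Set against the wild-type littermates of the same age, the region difference gave 0 calls among 15337 genes (0%) with both replicates, with 865 at an unadjusted p under 0.05 and 40 called by DESeq2. Without preHD-STR replicate 2, 36 of 15262 genes (0.236%) passed, all 36 with a lower striatum to cortex difference in R6/2 mice. preWT-STR and preWT-CTX are 1 library each and were assumed to vary like the R6/2 groups. The median difference was -0.093 over the 19 medium spiny neuron genes and -0.36 over the 17 striatal factors, against -0.011 over all genes. Drd1 was at 1213 CPM and Ppp1r1b at 1796 CPM in preWT-STR. With 1 wild-type library per region, whether these lists differ by genotype cannot be settled. Neurod2 passed (difference -1.43, adjusted p = 0.0289), at 37.4 CPM in preWT-STR and 432 CPM in preWT-CTX. Other cortical genes were also higher in preWT-STR than in preHD-STR replicate 1, Tbr1 at 26.4 against 6.77 CPM, Slc17a7 at 66.2 against 25.1 CPM and Emx1 at 1.71 against 0.233 CPM, and the part of cortical transcripts in that library in this result was not tested. The count was 0 without either preHD-CTX replicate and 254 or 263 without a postHD-STR replicate. The 5 with the largest differences were Gm16740, C1ql3, Shank3, Pdgfb and Spcs3. All of them except C1ql3 were higher in striatum than in cortex in the wild-type pair at 8 weeks and lower in R6/2 mice. The wild-type pair at 13 weeks did not repeat this for Gm16740 (3.91 CPM in postWT-STR, 4.67 in postWT-CTX) and Pdgfb (5.72 and 9.5 CPM). There Spcs3 (18.5 and 13.2 CPM) and Shank3 (18.9 and 5.68 CPM) were higher in striatum. The wild-type pairs at 8 and 13 weeks also differ in sex, so age and sex cannot be told apart between them. Shank3, a postsynaptic scaffold, was at 64.6 CPM in preWT-STR and 4.17 CPM in preWT-CTX, against 24 and 25.1 CPM in preHD-STR and 36.7 and 32.9 CPM in preHD-CTX.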

How the data were processed

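Counts of reads per gene from 12 mouse QuantSeq libraries were used as deposited, 23282 gene rows each; the authors' processing notes name Bowtie2, bedtools and mm10, and their versions, roles and the strand counted are not given in the sources used here. Totals were 8814386 to 12091201 per library. Main tests used edgeR 4.0.16 (robust quasi-likelihood, TMM, filterByExpr with a minimum count of 10, Benjamini-Hochberg adjusted p under 0.05) with a mean for each of 4 groups of the 8 R6/2 libraries (4 residual degrees of freedom); the contrast with preHD-STR replicate 1 left out replicate 2 (3 residual degrees of freedom). Contrasts with wild-type mice used 12 or 11 libraries. CPM were scaled over all 12. Alternatives used DESeq2 1.42.0 and limma 3.58.1 (voom). An exact permutation test of 2 against 2 cannot give a two-sided p below 0.333. Genes named are members of 20 gene lists, plus the 10 with the largest fold change per direction (5 for differences between ages or genotypes) at a mean of at least 5 CPM whose striatal libraries lay on the same side of both cortex libraries; members and lists were chosen with earlier results of these data known. Of 131 named genes, 53 overlap an annotated gene on the other strand, so reads of the partners cannot be told apart. Some listed genes are counted in their lists but not reported here by name. Scripts were tested on simulated data.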

Additional observations from a re-analysis of the deposited data

Results flagged for a closer look

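Results are given here where a test of the difference itself found that the striatum to cortex difference was not the same at 8 and 13 weeks, or in R6/2 and wild-type mice. Without preHD-STR replicate 2, 153 genes differed between the ages; with it, 0 did. The differences (8 weeks minus 13 weeks, log2 scale, edgeR) were 4.23 for Nts (adjusted p = 0.0325), 3.93 for Adora2a (adjusted p = 0.00109), 3.50 for Syndig1l (adjusted p = 0.00405), 3.06 for Pde10a, 3.03 for Zfp503, 2.89 for Drd1, 2.40 for Adcy5, 2.16 for Pde1b, 1.73 for Gng7, 1.57 for Penk, 1.22 for Ptpn5 and 1.06 for Bcl11b. In the other direction they were -4.47 for Wnt9a, -3.92 for Scd3, -3.75 for Cbln2 and -3.59 for C1ql3. The fitted value of Kcng4, -10.16, rests on 0 counts in preHD-STR replicate 1 and is no measure of size.

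Without preHD-STR replicate 2, 36 genes differed between R6/2 and wild-type mice at 8 weeks, and 0 did with it. The differences (R6/2 minus wild type) were -5.59 for Gm16740 (adjusted p = 0.0207), -4.77 for C1ql3 (adjusted p = 0.0166), -4.48 for Shank3, -4.22 for Pdgfb, -4.06 for Spcs3 and -1.43 for Neurod2. Each rests on 1 wild-type library per region.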

How the results depend on the processing

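Counts are of genes at an adjusted p under 0.05. For striatum against cortex with both replicates (629), DESeq2 called 1245 (44.1% higher in striatum against 33.2%), a threshold of 0.01 left 210, a test against a log2 fold change of 1 left 139, and the 4 preHD libraries alone gave 98; leaving out 1 library gave 96 to 1870. With replicate 1 alone (1870), the same threshold left 1004 and the same fold test 428, and the 3 preHD libraries alone gave 3220; leaving out 1 library gave 878 to 2858. For the difference between ages, DESeq2 called 17 with both replicates and 290 without replicate 2, no filter gave 1 and 612, and the 0.01 threshold left 16 without replicate 2; leaving out 1 library gave 0 to 168 and 9 to 869. For the difference between genotypes, DESeq2 called 40 and 91, no filter gave 9 and 258, and the 0.01 threshold left 0 without replicate 2; leaving out 1 library gave 0 to 910 and 0 to 263. Without replicate 2 in the data, leaving out a postHD library in any comparison, or a preHD-CTX library in those of ages and genotypes, was chosen after seeing the data. The cause of these changes was not tested.

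The replicate number as a block gave 515 calls with both replicates and 0 for the difference between ages. Deviations of same-numbered libraries correlated at 0.112 at 8 weeks and 0.2 at 13 weeks, over 2 pairs each, and the labels name no shared animal, so the numbers were not taken as a pairing.

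Of the named genes, 10 changed sign in some setting. With both replicates, Pvalb (log2 fold change) was -1.06 with the replicate block and -1.15 under voom. Over the fits that left out 1 library, with both replicates, Arpp21 ran from -0.077 to 1.70, Foxp1 from -0.095 to 1.36, Cartpt from -1.58 to 2.57, Gria1 from -0.25 to 1.14, Grm5 from -0.21 to 1.26, Kcnip2 from -0.11 to 1.55, Cnr1 from -0.33 to 0.074, Etv1 from -0.19 to 0.30 and Pvalb from -3.70 to 1.38. For these 9 the sign turned on which striatal library was left out, and for Etv1 it also turned without preHD-CTX replicate 2 (-0.12). With replicate 1 alone, leaving out 1 cortex library gave 0.018 and -0.38 for Etv1, 0.16 and -0.0096 for Cnr1, and -0.13 and 0.088 for Sst. A count of 0 in a preHD library allows up to 0.315 to 0.35 CPM (3 counts), for counting error only.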
